A study of Drosophila melanogaster with 2 samples.

Results

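The genes described here encode the translation initiation and elongation factors of Drosophila melanogaster, taken as every protein-coding gene of the dm6 annotation whose symbol begins with eIF or eEF. There were 52 of them among 13945 protein-coding genes, 44 initiation factors and 8 elongation factors. A gene was said to have a promoter peak when the summit of a ChIP-seq peak, its highest point, lay within 1 kb of any of its annotated transcription start sites. Members were taken by symbol, with no threshold on a measured value.

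The measurement was the recovery of E(spl)m3-HLH, a basic helix-loop-helix repressor whose gene is switched on by Notch signalling. It was precipitated from whole embryos of mixed sex, aged 0 to 24 h, of a transgenic line that carries the protein fused to GFP at its C terminus. The labels describe an anti-GFP precipitation, while their antibody field names the E(spl)m3-HLH protein. There was 1 group with 2 biological replicates, numbered 2 and 3, and no comparison between conditions could be made. In whole embryos, stronger recovery per cell and recovery from more cells cannot be told apart.

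The thresholded list, which the authors derived from both replicates, held 5701 peaks. The whole lists, described as peaks and background, held 25791 peaks for the pooled alignments, 30000 for replicate 2 and 24781 for replicate 3. The peak signals are enrichment values from the authors' caller and are comparable only within a list, where the rank says more than the size. Read depth is unknown from these lists. With 1 group and no control samples among those analysed, no test was run. Shares of the factor genes are set beside the same share of the other 13893 protein-coding genes, and p-values are not given.

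Initiation begins when the small ribosomal subunit, eIF1, eIF1A, eIF3 and a ternary complex of eIF2, GTP and the initiator methionyl-tRNA assemble on a messenger RNA whose cap is held by eIF4E, eIF4G and the helicase eIF4A. After the start codon is found, eIF5 and eIF5B help to release the factors and to join the large subunit, and eIF2B recharges eIF2 with GTP. During elongation, eEF1 brings aminoacyl-tRNAs and eEF2 moves the ribosome along. Most of these factors are needed in all growing cells, while some fly paralogues are used mainly in the testis or serve as repressors.

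A thresholded summit lay within 1 kb of a start site for 19 of the 52 factor genes (36.5%), beside 3715 (26.7%) of the other protein-coding genes. The share of the factor genes was therefore 1.37 times that of the others. Initiation and elongation factors had nearly the same share, 16 of 44 (36.4%) and 3 of 8 (37.5%). Among the strongest 5701 peaks of replicate 2 alone, 21 factor genes (40.4%) had a summit, beside 27.4% of the others. Among the strongest 5701 of replicate 3 alone, 17 factor genes (32.7%) had one, beside 25.4%. The factor genes stood above the background in each replicate, by a ratio of 1.47 in replicate 2 and 1.29 in replicate 3.

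The whole lists reach further down. The pooled list gave 36 factor genes (69.2%) a summit within 1 kb, beside 55.1% of the other genes. In the whole list of replicate 2 there were 37 (71.2%), beside 59.9%, and in that of replicate 3 there were 35 (67.3%), beside 52.4%. Whether the list of replicate 2 was cut at its round number of 30000 peaks is unknown, and its shares depend on that. The ratio to the other genes was lower in these lists, 1.26, 1.19 and 1.29, than in the thresholded list.

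**Figure D1:**
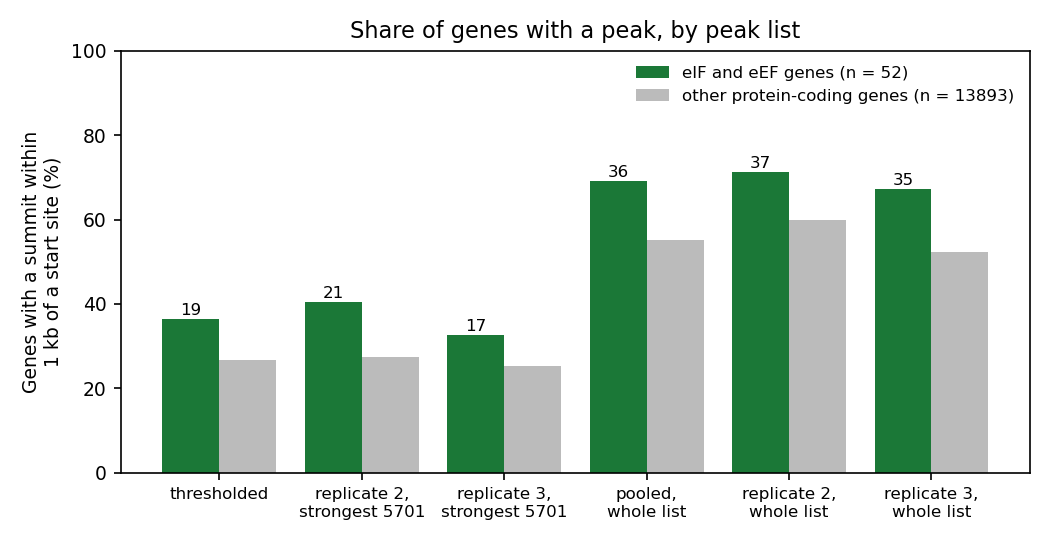
Share of genes (%) with a summit within 1 kb of a start site in each peak list, for the 52 eIF and eEF genes (green, with their number above the bar) and the 13893 other protein-coding genes (grey). The green bar is higher in all 6 lists, from 32.7% against 25.4% in the strongest peaks of replicate 3 to 71.2% against 59.9% in the whole list of replicate 2.

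The factor genes were above the other genes at each distance tried, from 100 to 5000 bp. Within 100 bp of a start site, 11 factor genes (21.2%) had a thresholded summit, beside 8.11% of the other genes. Within 300 bp there were 17 (32.7%) beside 19.7%, within 500 bp 17 beside 23.2%, and within 1500 bp 22 (42.3%) beside 29.6%. Within 5000 bp there were 26 (50%) beside 47.8%, where the shares came close together. Among genes with a peak, the nearest summit of the 19 factor genes lay at a median of 87.0 bp (28 to 747 bp), and that of the 3715 others at 159 bp. From the outermost start site alone the median of the factor genes was 168 bp. That median was not taken for the others, whose 159 bp is to the nearest of any start site. For 17 of the 19 (89.5%) this summit was upstream of the start site, as for 86.9% of the others. The signals were ordinary: the median of the strongest promoter peak was 237 (133 to 3782) for the factor genes and 229 (108 to 3847) for the others, and 11 of the 19 were above the median of the others.

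**Figure D2:**
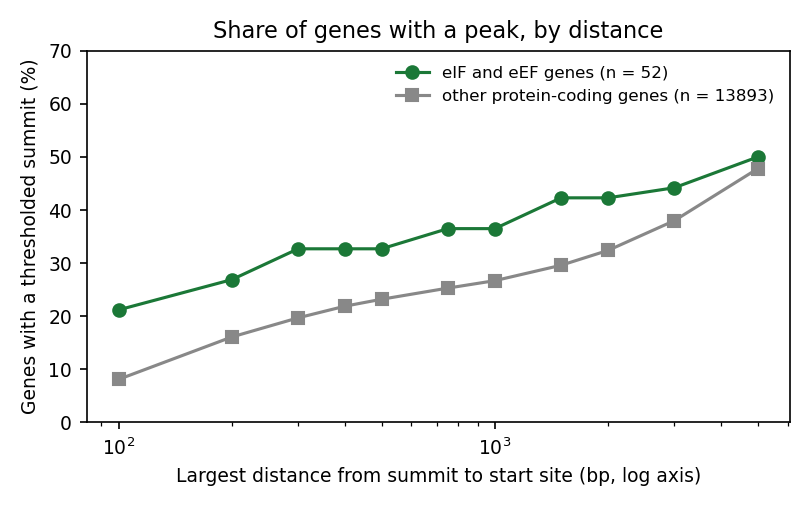
Share of genes (%) with a thresholded summit against the largest distance allowed between summit and start site (bp, log axis), for the 52 eIF and eEF genes (green circles) and the 13893 other protein-coding genes (grey squares). The lines run apart at 100 bp (21.2% and 8.11%) and come together at 5000 bp (50% and 47.8%).

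Gene structure moved with these shares. More of the factor genes had 2 or more annotated start sites (38.5%, against 26.5% of the others), and more had another protein-coding start site on the other strand within 1 kb (50% against 36.8%). Within the genes of 1 start site, 8 of 32 factor genes (25%) had a peak beside 21.1% of the others, and within those of 2 or more it was 11 of 20 (55.0%) beside 42.5%. With a neighbour on the other strand, 13 of 26 (50%) had a peak beside 45.9%, and without one 6 of 26 (23.1%) beside 15.6%. The factor genes were above the others in all 4 of these classes, which are overlapping splits of the same genes. The shares were close with 1 start site and with a neighbour on the other strand. By chromosome arm, the factor genes were above the others on 2L, 2R, 3L and 3R. They were below on X (1 of 7, 14.3%, beside 25.3%) and on 4 (0 of 1, beside 19.0%). The part of gene structure in the difference was not tested.

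The eIF2B complex, the exchange factor that reloads eIF2 with GTP, held the factor gene of the strongest peak. The peak at eIF2Bbeta (FBgn0024996; dm6, chrX:2703665-2704118, intergenic) had a pooled signal of 3782, with 2198 in replicate 2 and 1599 in replicate 3. It ranked 2 in the thresholded list, 2 in replicate 2 and 1 in replicate 3. Its summit was 683 bp upstream of the eIF2Bbeta start site but 36 bp upstream of that of Ugalt, which encodes a UDP-galactose transporter. The peak thus counts for eIF2Bbeta through the 1 kb reach and lies nearest to another gene.

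At eIF2Bdelta the pooled signal was 181, with 122 in replicate 2 and 67.0 in replicate 3. This summit was 747 bp upstream, in the 3' UTR of roh, and the start site of CG30414 was nearer at 306 bp. The other 3 subunit genes had no thresholded summit within 1 kb. The complex thus had a peak at 2 of 5 genes (40.0%), beside 26.7% of the other protein-coding genes. At eIF2Bgamma the pooled list held a weak summit (45.8, with 25.7 in replicate 2 and none in replicate 3), and the nearest thresholded summit was 1269 bp away, 29 bp from the start of CG8187. At eIF2Balpha and eIF2Bepsilon no list had a summit within 1 kb. Both eIF2B genes with a thresholded peak owed it to a summit nearer to a neighbour. The whole lists also held another summit close to the eIF2Bbeta start site. It was 7 bp away in the pooled list, 2 bp in replicate 2 and 18 bp in replicate 3. For eIF2Bdelta the whole list of replicate 2 held another summit 74 bp from a start site.

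The cap-binding family had a peak at 1 of 7 genes (14.3%), beside 26.7% of the other protein-coding genes. This gene, eIF4EHP (FBgn0053100), encodes a cap-binding protein that represses translation, known in the embryo for silencing caudal mRNA with Bicoid. The intergenic peak at chr3R:24108919-24109421 had a pooled signal of 1245 (rank 68), with 798 in replicate 2 (rank 60) and 462 in replicate 3 (rank 78). Its summit was 272 bp upstream of eIF4EHP and 104 bp from the start site of CG18428, which points the other way. eIF4E1, the general cap-binding factor, had pooled, replicate 2 and replicate 3 signals of 93.9, 59.2 and 36.6 and no thresholded peak. eIF4E3, needed for sperm formation, had 35.5, 21.4 and 16.1, and eIF4E6 had 31.7 and 26.4 with no summit in replicate 3. eIF4E4, eIF4E5 and eIF4E7 had no summit in any list. The pooled signal in reach of eIF4EHP was thus far above that of the 6 other genes of its family, whose highest was 93.9. This contrast rests on a summit nearer to CG18428. When each summit was given to its nearest start site alone, no gene of the family had a peak.

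Windows of eIF4EHP, eIF3h and eIF1 are printed because they show how unlike the bases under these summits were. Each is 101 bases of dm6 centred on a summit, on the strand of the factor gene and is taken from the RefSeq genome sequence. The first is at eIF4EHP (chr3R:24109182-24109282, minus strand), the second in an intron of eIF3h (chr2L:5052437-5052537, minus strand), and the third between eIF1 and RpL28 (chr3L:3222966-3223066, plus strand), where the capitals mark the core of a DRE, described with the motifs.
eIF4EHP: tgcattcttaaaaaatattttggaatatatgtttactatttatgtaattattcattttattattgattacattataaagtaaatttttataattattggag
eIF3h: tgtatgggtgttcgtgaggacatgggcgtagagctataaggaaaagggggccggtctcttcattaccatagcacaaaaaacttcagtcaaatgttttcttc
eIF1: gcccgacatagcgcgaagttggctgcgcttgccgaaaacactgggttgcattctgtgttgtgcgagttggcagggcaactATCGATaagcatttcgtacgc
No DRE core was in the eIF4EHP and eIF3h windows. The eIF4EHP window had the lowest share of G and C among the 22 windows at factor genes, 14.9%, and the eIF1 window the highest, 54.5%, a value that 2 other windows shared. The eIF3h window had 44.6%. The median of the 22 was 42.1%, beside 33.7% for all 3082 promoter peaks.

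The genes of start codon selection and subunit joining had peaks at 3 of 4, beside 26.7% of the other protein-coding genes. Counts by complex rest on few genes and are descriptions. At eIF1 (FBgn0035423), which helps the scanning ribosome to reject wrong start codons, there were 2 summits. The stronger, 325 bp upstream, had a pooled signal of 343, with 237 in replicate 2 and 108 in replicate 3, and lay 56 bp from the start site of RpL28, a ribosomal protein gene on the other strand. The weaker, 48 bp upstream of eIF1, had 218, 137 and 78.4 and was nearest to eIF1 itself. At eIF5B (FBgn0026259), the GTPase of subunit joining, the signals were 378, 205 and 168 at 154 bp upstream of the nearest start site, inside the 5' UTR of another eIF5B transcript (chr3L:3460645-3460876). At eIF1A, the partner of eIF1, they were 158, 110 and 48.6 at 204 bp upstream, and the start site of Vps39 was 15 bp away. eIF5, the activator of GTP hydrolysis by eIF2, had no summit in the thresholded or pooled list and weak ones of 26.4 and 18.6 in replicates 2 and 3.

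Of eIF2 and the other carriers of methionyl-tRNA, 3 of 5 had a peak, beside the same 26.7%. The eIF2 subunit gene eIF2beta had signals of 236, 155 and 73.7 in the pooled list and replicates 2 and 3, with the summit 279 bp upstream. eIF2D and eIF2A encode factors that can bring tRNA to the ribosome without eIF2. eIF2D had 237, 131 and 103 at 87 bp upstream. eIF2A had 224, 158 and 62.2 at 57 bp upstream of the nearest of its 2 start sites, inside the 5' UTR of another eIF2A transcript. None of these 3 summits had another protein-coding start site within 1 kb. eIF2gamma, the GTPase subunit, fell just below the thresholded list, whose lowest signal is 108, with 103, 73.2 and 35.7. eIF2alpha, whose phosphorylation under stress slows initiation, had 52.6, 27.8 and 22.8. In the thresholded list the beta subunit had a peak and the other 2 did not. Without replicate 3, that is among the strongest peaks of replicate 2 alone, eIF2gamma had one too, as did eIF3k.

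eIF6, which keeps the large ribosomal subunit from joining too early, had the second strongest peak of the factor genes. Its pooled signal was 1569 (rank 39), with 933 in replicate 2 (rank 41) and 644 in replicate 3 (rank 35). The peak (chr2R:23850235-23850576) had its summit 94 bp upstream of eIF6, in an intron of ytr, whose own start site was 678 bp away. Unlike the peaks at eIF2Bbeta and eIF4EHP, this summit was nearest to the factor gene itself.

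eIF3, the scaffold that holds the factors on the small subunit, had a peak at 5 of 16 genes (31.2%), near the 26.7% of the other protein-coding genes. At eIF3c the signals in the pooled list and replicates 2 and 3 were 442, 231 and 207 at 42 bp upstream. At eIF3h the stronger summit had 409, 244 and 151 and lay 293 bp downstream in an intron. A weaker eIF3h summit 29 bp downstream had 114 in the pooled list and 92.9 in replicate 2. In replicate 3 no summit lay within 100 bp of it, although 1 peak overlapped it. At eIF3m the signals were 215, 126 and 86.3 at 74 bp upstream, between eIF3m and CG8323.

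The remaining 2 eIF3 genes with a peak were weak. eIF3a had 145, 108 and 35.9 at 55 bp upstream, with the start site of CG1074 nearer at 15 bp, and eIF3d1 had 143, 83.9 and 58.3 at 47 bp upstream. Of the 11 without a thresholded peak, eIF3k had 103, 78.3 and 29.2, just below the threshold, and eIF3b, eIF3e, eIF3f1 and eIF3l had pooled signals from 45.4 to 69.2. The last 6, eIF3d2, eIF3f2, eIF3g1, eIF3g2, eIF3i and eIF3j, had no summit in any list. For eIF3g1 the nearest thresholded summit was 1351 bp away and 109 bp from the start of Smyd3.

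Of the helicase, its scaffold and its cofactors, 1 of 6 genes had a peak, beside 26.7% of the other protein-coding genes. eIF4A, the helicase that unwinds leaders, had 2 weak summits. The first had 144, 94.0 and 54.7 in the pooled list and replicates 2 and 3, 613 bp upstream and 133 bp from the start site of chic, the profilin gene. The second had 137, 91.7 and 48.2, 110 bp downstream in the 5' UTR. The scaffold genes eIF4G1 (31.2, 46.6 and 16.0) and eIF4G2 (50.6, 46.0 and 20), the latter needed in male germ cells, had summits in the whole lists alone. eIF4B had a single summit of 17.9 in replicate 3, and eIF4H1 and eIF4H2 had none in any list.

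The elongation factor genes with a peak were eEF1gamma, eEF1alpha1 and eEF5. eEF1gamma (FBgn0029176), the structural subunit of the eEF1B exchange complex, had signals of 453, 304 and 149 with the summit 28 bp upstream (chr3R:29220047-29220247) and no other protein-coding start site within 1 kb. eEF1alpha1, the main carrier of aminoacyl-tRNA, had 262, 156 and 112 at 105 bp upstream of the nearest of its 4 start sites, in its own intron. eEF5, known in other eukaryotes as the hypusine-bearing eIF5A, had 133, 100 and 33.7 at 52 bp upstream. Without replicate 2, that is among the strongest peaks of replicate 3 alone, eEF5 and eIF3a had no summit in reach.

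The other 5 elongation factor genes had none in the thresholded list. eEF2, the translocase, had 89.8, 52.7 and 36.6 in the pooled list and replicates 2 and 3. The exchange subunits eEF1beta and eEF1delta had pooled signals of 61.4 and 33.8. eEF1delta was the member just outside the 1 kb reach, with a thresholded summit 1197 bp away that was 382 bp from the start site of ova. eEFSec, the factor for selenocysteine, had no summit in any list.

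**Figure D3:**
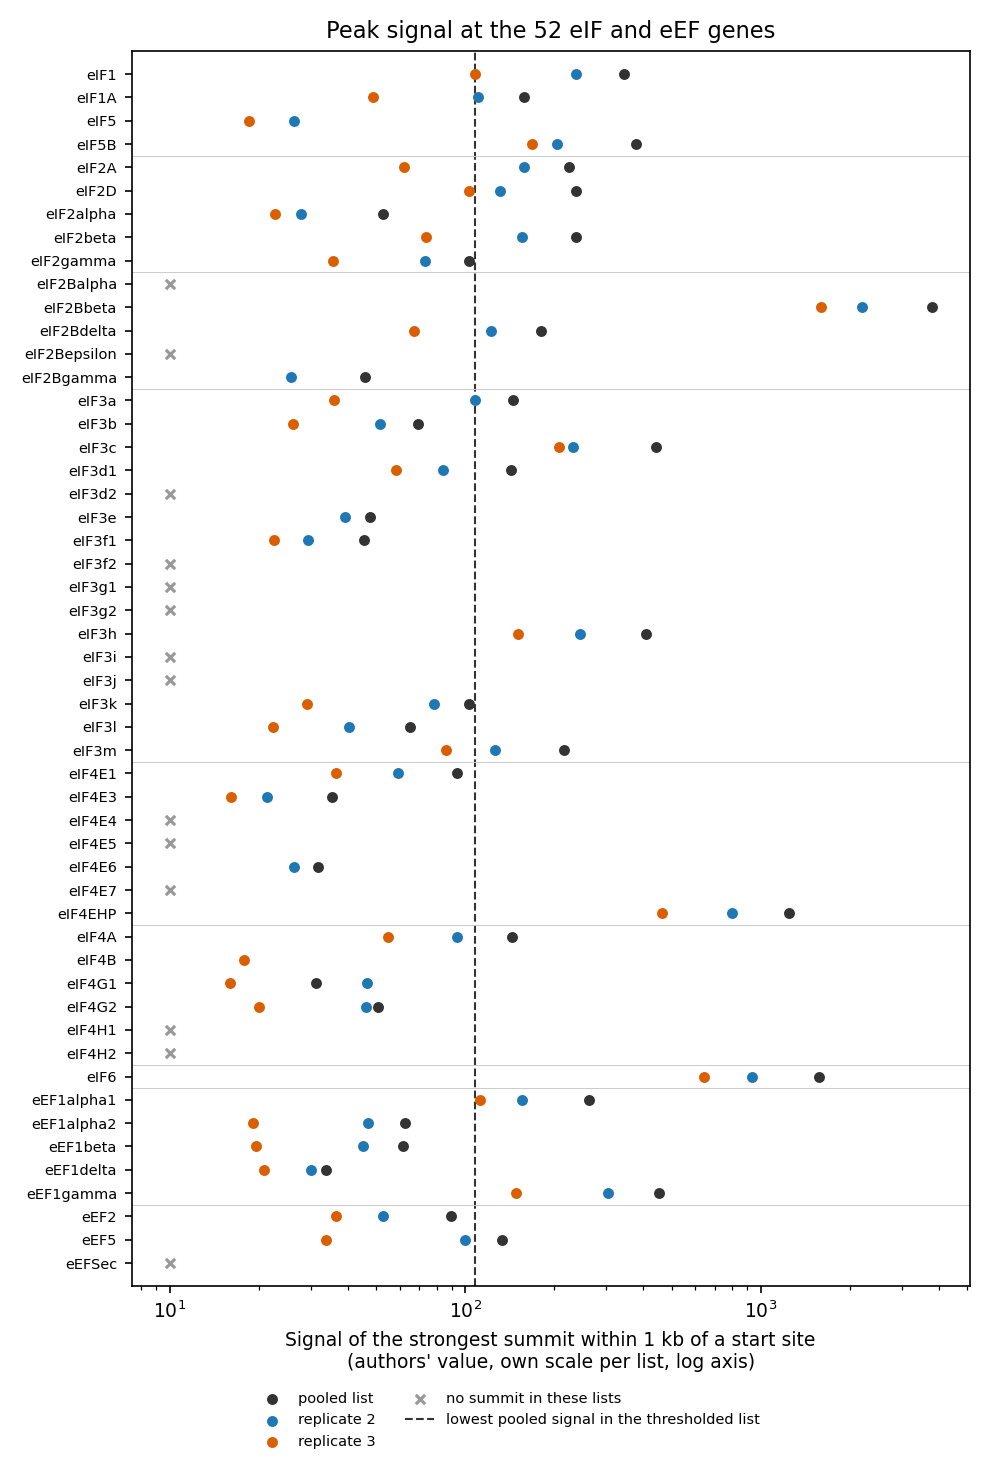
Signal (authors' value, own scale per list, log axis) of the strongest summit within 1 kb of a start site for each of the 52 genes, in the pooled list (black), replicate 2 (blue) and replicate 3 (orange), grouped by complex; grey crosses at the left edge are no values and mark the 14 genes with no summit in any of these lists. The dashed line is the lowest pooled signal in the thresholded list, 108, with eIF2gamma and eIF3k (both 103) just to its left and eIF2Bbeta (3782), eIF6 (1569) and eIF4EHP (1245) far to its right.

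Of the 33 factor genes without a thresholded peak, 17 had a summit in the pooled list, at signals from 31.2 to 103. A summit was present in both replicate lists for 15 of the 33 and in 1 of them for 4, and 14 had none in any list. The nearest thresholded summit was a median of 13975 bp from their start sites, from 1197 bp at eEF1delta to 1844168 bp at eIF4B. Genes with a peak were slightly longer (median 2279 bp) than those without (1944 bp).

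Of 11 groups of related genes, 7 were mixed, with a peak at some genes and not at others. The eEF1alpha pair counts in 2 of these 7, alone and among the translational GTPases. How many groups of unrelated genes of the same sizes would be mixed was not tested. The number of mixed groups was 4 in the stronger part of the thresholded list (2850 peaks) and 5 in the whole pooled list. It was also 5 when a summit was given to its nearest start site alone, where the eIF4E and eIF2B groups no longer counted. Of the eEF1alpha pair, eEF1alpha1 had 262, 156 and 112 in the pooled list and replicates 2 and 3, and eEF1alpha2 had 62.6, 46.8 and 19.2. The first was the higher in all 3 lists. Of the eIF3d pair, eIF3d1 had a peak and eIF3d2 had no summit in any list. Among the eIF4G relatives, NAT1, which lacks the part of eIF4G that binds eIF4E, had 167, 116 and 58.3, above both eIF4G1 and eIF4G2. CG7483, the fly eIF4A3 of the exon junction complex, had 48.8 and 49.1 with no summit in replicate 3, below eIF4A. By symbol, NAT1 and CG7483 are not among the factor genes. The eIF4G and eIF4A groups were mixed only through them. The eIF3f, eIF3g, eIF4H and eIF4B, and eEF1beta and eEF1delta groups had no thresholded peak at any gene.

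The 19 genes with a peak had 22 distinct peaks. Of these, 15 (68.2%) had start sites of 2 or more protein-coding genes within 1 kb of the summit, beside 1321 of all 3082 promoter peaks (42.9%). The 22 peaks were reached through genes, so a peak near 2 or more genes had more ways to be among them. All 3082 promoter peaks were counted once each, so part of this difference was fixed by the way of counting. The nearest start site belonged to the factor gene for 15 of the 22 and to another gene for 7. When each summit was given to the gene of its nearest start site alone, 14 factor genes kept a peak, beside 19.3% of the other genes, and eIF1A, eIF2Bbeta, eIF2Bdelta, eIF3a and eIF4EHP lost theirs. Summits were intergenic for 14 of the 22, beside 54.6% of all promoter peaks, and in a 5' UTR for 4, beside 11.8%. They were in an intron for 3, beside 31.6%, and in a 3' UTR for 1, beside 1.40%.

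**Figure D4:**
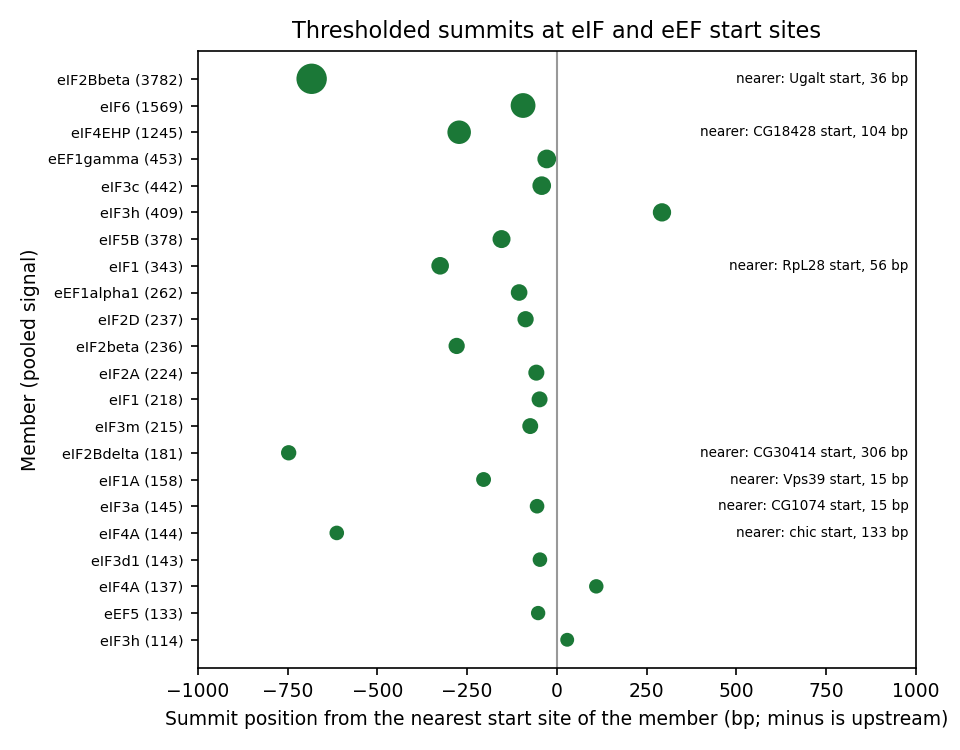
Position of the 22 thresholded summits relative to the nearest start site of the factor gene (bp; minus is upstream), ordered by pooled signal, which is given beside each name (the area of a circle follows its square root). Of the 22, 7 have a start site of another gene nearer, named at the right with its distance, among them eIF2Bbeta (683 bp upstream, 36 bp from Ugalt) and eIF4EHP (272 bp upstream, 104 bp from CG18428).

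The thresholded list was made from agreement between these replicates, so the values that follow were largely fixed by that choice and describe the peaks. Of the 22 peaks, 21 (95.5%) had a summit within 100 bp in the whole lists of both replicates, beside 95.8% of all 3082 promoter peaks. The summit moved by a median of 4 bp (0 to 47) in replicate 2 and 9 bp (0 to 85) in replicate 3. Across the 21 peaks, Spearman's rho of the replicate signals was 0.901, and across 2953 promoter peaks in both replicates it was 0.845. The points share libraries, and this is a description.

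**Figure D5:**
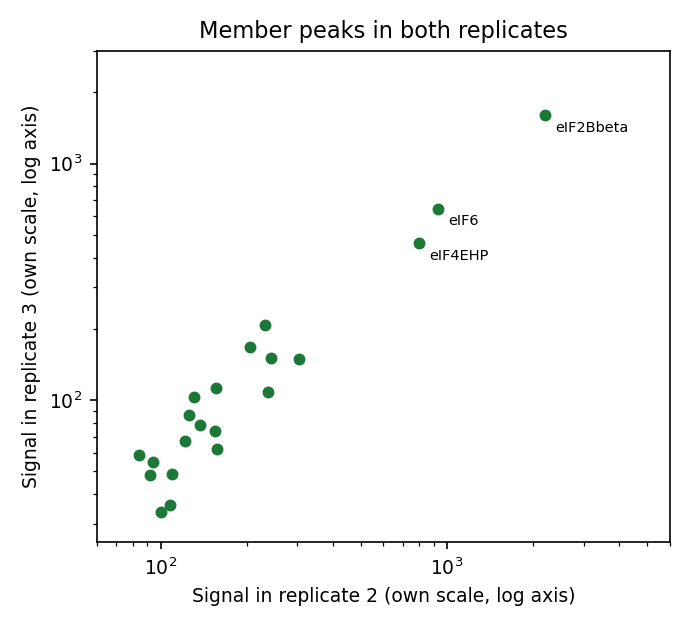
Signal of 21 factor gene peaks in replicate 2 (x axis) and replicate 3 (y axis), each the authors' value on its own scale, on log axes; each point is 1 peak. The points rise together (Spearman's rho 0.901), with eIF2Bbeta (2198 and 1599), eIF6 (933 and 644) and eIF4EHP (798 and 462) apart from the rest at the upper right.

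Motifs were searched on both strands in the 101 bases around each of the 22 summits, with the same width around all 3082 promoter summits and around the start sites of all 13945 genes beside them. Sites known for E(spl) proteins depended on the width searched. The N box CACNAG was in 3 windows (13.6%), beside 10.6% of promoter peaks and 13.1% of all promoters, and the class C site CACGNG was in none, beside 4.48% and 8.92%. With 100 bp to each side of the summit, the N box was in 31.8% of the factor gene windows and 20.4% of promoter peaks, and the class C site was in 22.7% and 10.1%, so the class C site went from below to above the promoter peaks. The E box CACGTG, which also matches CACGNG, was in none, beside 0.876% and 1.98%. Any E box, CANNTG, was in 9 (40.9%), beside 34.8% and 43.6%. CAGCTG, a form of CANNTG, was in none, beside 4.64% and 9.34%. The place of CANNTG above the promoter peaks held for the 101 bases alone. With 100 bp to each side it was in 54.5% of the factor gene windows and 58.7% of promoter peaks. With 25 bp to each side it was in 9.09% and 18.4%.

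The DRE, TATCGATA, an element of housekeeping promoters bound by the factor DREF, was in 5 of the 22 windows (22.7%). It was in 2.99% of promoter peaks and in 5.56% of all promoters. Its core ATCGAT was in the same number of windows (22.7%), beside 7.33% and 13.1%. The motif 1 core GGTCACAC was in 2 windows (9.09%), beside 1.10% and 5.59%, GAGAG was in 2 (9.09%), beside 8.34% and 11.5%, and TATAAA was in 3 (13.6%), beside 20.8% and 17.0%. A match is a description of the letters and not a bound site.

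The 5 DRE sites are printed, each as 30 bases on the strand of the factor gene with the DRE in capitals, since this element had the highest ratio to all promoters among the motifs present. They were chosen after the values were seen. They lie at chr3R:29220120-29220149 (eEF1gamma, plus strand), chr3L:3223034-3223063 (eIF1, plus strand), chr3L:21824865-21824894 (eIF2A, plus strand), chr3R:18274452-18274481 (eIF1A, plus strand) and chr3R:4433915-4433944 (eIF3a, minus strand).
eEF1gamma: ggcctaggaaaTATCGATAtatcgccgtaa
eIF1: ggcagggcaacTATCGATAagcatttcgta
eIF2A: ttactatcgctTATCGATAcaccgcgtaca
eIF1A: atgatgatagaTATCGATAgctttagcggt
eIF3a: tcggcctgaacTATCGATAacgcagccagg
The sites lay 5 to 32 bp from the summit. At eIF1, eIF1A and eIF3a the peak was nearer to a neighbour's start site than to that of the factor gene.

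Many ribosomal protein genes and some other translation genes start at a TCT motif, a run of pyrimidines at the start site itself. A CTTT within 5 bp of a start site on the gene's strand was found at 7 of the 52 factor genes (13.5%), at 8.05% of the other genes and at 62.4% of 93 cytoplasmic ribosomal protein genes. The 7 were eEF1alpha1, eEF2, eEF5, eIF3f1, eIF3i, eIF3m and eIF4A. Of these, 4 (57.1%) had a peak, beside 34.2% of other genes with such a start, and of the 45 without one, 15 (33.3%) had a peak, beside 26.1%. Starts of genes with and without a peak are shown with the CTTT in capitals, at chr2L:21682103-21682126 (eEF2, minus strand), chr3R:4714169-4714192 (eIF3f1, minus strand), chr2L:4967762-4967785 (eIF3i, minus strand) and chr2L:5981754-5981777 (eIF4A, plus strand).
eEF2: tgcagcgcctcgctCTTTcctgtc
eIF3f1: actatcgataggccCTTTtcttgc
eIF3i: cacggtcacactgctCTTTtggcg
eIF4A: gcaagatggagcctCTTTtgcttg
Of these 4, eIF4A had a peak, and eEF2, eIF3f1 and eIF3i had none in the thresholded list. The printed CTTT began 4 bp downstream of the annotated start at eEF2, eIF3f1 and eIF4A, and 5 bp downstream at eIF3i. None of these 4 began at the annotated start itself, so they are matches to 4 letters near it.

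Other genes of the translation machinery were counted in the same way, beside the same 26.7%. All 5 release and recycling genes had a peak, with signals of 300 at eRF1, which reads stop codons, 237 at pelo, which rescues stalled ribosomes, and 177 at eRF3. Of 19 regulators of initiation, 13 (68.4%) had one, among them Lk6 (2168), a kinase of eIF4E, larp (1778) and brat (956), a translational repressor. The Lk6 summit was 978 bp from its start site, at the edge of the reach. Within 500 bp the share of these regulators was 57.9%, beside 23.2% of the other genes. Of 20 cytoplasmic aminoacyl-tRNA synthetase genes, 10 (50%) had one, with SerRS (656), GluProRS (651) and IleRS (601) the highest. Of 9 mitochondrial translation factors, 2 (22.2%) had one, mEFTu1 (139) and mRF1 (111). Of the 93 ribosomal protein genes, 65 (69.9%) had one, led by RpS27 (650), RpL34b (643) and RpL7 (638). The 36.5% of the eIF and eEF genes lay above the mitochondrial factors and below the other 4 lists. These lists were chosen with earlier results known and some hold few genes, so this order is a description. Their start-site numbers and neighbours were not compared.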

How the data were processed

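The authors deposited peak lists on dm6, called per replicate and on pooled alignments with a control file, and an IDR-thresholded list, per the labels and the deposited listings. Each peak has a signal, the enrichment value of the authors' peak caller on a scale not stated. The aligner and peak caller, not given in the sources used here, are left unnamed. The dm3 lists were not used.

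Genes and start sites came from Ensembl release 115 on 6 chromosome arms, and sequence from the RefSeq dm6 genome. Summits were assigned to every gene with a start site within 1 kb, and to replicates within 100 bp. Stated shares are counts of genes, with no test and no count of reads. Symbols were matched by name, 6 through an older or differently written symbol, and mtRF1L was not matched. Python 3.11.15, numpy 2.4.6, pandas 2.3.3, scipy 1.17.1 and matplotlib 3.10.9 were used. The genes, lists and motifs were chosen with earlier results of these data known. Every factor gene could be named, and of the other lists up to 3 genes of highest signal. Alternatives changed the distance, list, replicate, assignment, start sites and motif window.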

Additional observations from a re-analysis of the deposited data

How the results depend on the processing

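No paired analysis was possible because there is 1 group. Of 86 alternative values, 23 moved by more than the spread between the 2 replicates or beyond the limit set for counts, and 63 did not. The number of factor genes with a peak was 36 in the whole pooled list and 6 without genes that have a neighbour on the other strand, and 17 to 21 in 1 replicate alone. The share of the other genes was 23.2% within 500 bp, 32.4% within 2 kb, 55.1% in the pooled list, 16.1% in the stronger part of the thresholded list (2850 peaks), 19.3% for the nearest start site alone, 24.7% for the outermost start site, 15.6% without neighbours, and 25.4% to 27.4% in 1 replicate alone. The ratio was 1.56 in the stronger part and 1.29 to 1.47 in 1 replicate alone. The median percentile of the signal was 54.0 to 60.1 in 1 replicate alone, against 52.4, and the median distance was 61.0 to 96.0 bp there and 168 bp for the outermost start site, against 87.0 bp. The N box was in 31.8% of windows of 100 bp to each side (promoter peaks 20.4%) and in 4.55% of those of 25 bp (5.48%), and the class C site in 22.7% of the former (10.1%). The mitochondrial factors had 11.1% to 22.2% in 1 replicate alone. The cause of these moves was not tested. Read depth is unknown, so values near the lowest signals cannot be given a counting error.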

Other observations

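Beyond 1 kb of their start sites, the 2 longest factor genes, eIF4EHP (45884 bp) and eIF5B (32320 bp), held further thresholded peaks. The same was not counted for other genes of like length. There were 8 such peaks in all, each with its summit in an intron of the gene. In eIF4EHP there were 3, with signals of 345, 232 and 116 at 9796, 2528 and 8063 bp from its start site. The one of 232 was 669 bp from the start site of Syx1A, the syntaxin gene of synaptic release, which was the nearest protein-coding start site for all 3. In eIF5B there were 5, with signals of 295, 202, 135, 122 and 117. The nearest start site was that of sty, an inhibitor of receptor tyrosine kinase signalling, for those of 295, 202 and 117, and that of eIF5B for those of 135 and 122.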
